A study of Oryza sativa with 14 samples.

Results

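Whole seedlings of the rice cultivar Nipponbare were set against whole seedlings of the cultivar Estrela A, to ask how far the transcript levels of unmodified plants differ between cultivars. Both are Oryza sativa ssp. japonica and neither group was transformed or irradiated. The comparison rests on 4 of the 14 arrays of the series, the 2 Nipponbare arrays that served as control for the unstable lines and the 2 Estrela A arrays that served as control for the stable mutant. All 57194 probe sets of the Affymetrix rice array other than control and reporter probe sets were compared. Plants were 12 days old and had spent 2 days dark, then 10 days at 28 °C with 12 h of light a day, on medium without hygromycin. Each array holds RNA of 1 pool of 6 seedlings, so every p-value measures the spread between pools, which may be smaller than that between independent plantings.

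Cultivars of 1 subspecies share nearly all genes, but differ in promoter sequence, in copy number and in the presence of single genes. Such inherited differences in transcript level are common in rice and are found in genes of nutrient uptake, defence and stress response. Transcripts of a whole seedling come from shoot and root together, so fewer cells of a type and less RNA per cell cannot be told apart. The probes were designed largely from japonica transcripts, and a probe that mismatches 1 cultivar reads lower there. A difference in probe match and a difference in transcript level therefore cannot be told apart at any single probe set.

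Values are log2 levels on each array, given as replicate 1 and replicate 2, and differences are Nipponbare minus Estrela A. Across probe sets the replicate arrays correlated at 0.993 in Nipponbare and at 0.997 in Estrela A, and arrays of different cultivars at 0.959 to 0.966. Limma was fitted over all 14 arrays, and calls are two-sided tests whose p stayed under 0.05 after Benjamini-Hochberg adjustment. The derived lines of the same cultivars gave 6 more arrays. Their levels do not enter the differences, but their spread enters the SE and the calls through the fit over all 14 arrays. The unstable transgenic line (Nipponbare, T1 generation) carries BCBF1 driven by the AtRD29A promoter and the hpt II gene, and germinated on 30 mg/L hygromycin B. The unstable mutant (Nipponbare, M1 generation) received 100 Gy of gamma rays. The stable mutant (Estrela A) is a gamma-ray mutant selfed for over 10 generations, about 45 cm shorter at maturity. The unstable mutant arrays correlated at 0.971 to 0.978 with the Nipponbare control arrays and at 0.971 to 0.973 with the Estrela A control arrays. With the control arrays of another cultivar, Bengal, they correlated at 0.972 to 0.974. They were thus little nearer to Nipponbare than to the other cultivars, and no nearer to Estrela A than to Bengal. Results on the derived lines are therefore given for each Nipponbare line apart, except a test that averages them, which is named as such.

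Nipponbare and Estrela A seedlings differed at 13876 of 57194 probe sets, which is 24.3% of those tested. In Nipponbare 5414 probe sets were higher (9.47%) and 8462 were lower (14.8%). An unadjusted p under 0.05 was reached by 19854 probe sets. With 1 probe set a gene, 6669 of 17905 genes were called (37.2%), 2642 of them higher in Nipponbare (14.8%) and 4027 lower (22.5%). The excess of lower calls depended on scaling, since 39.0% of the calls were higher in Nipponbare as deposited and 49.4% after cyclic loess between the arrays (13410 calls). The median difference over genes was -0.065 as deposited and 0.012 after cyclic loess.

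Large differences leaned the other way. Of 3473 calls of at least 2-fold, 1778 were higher and 1695 lower in Nipponbare. At least 4-fold, 690 were higher and 314 lower, and at least 16-fold, 188 were higher and 58 lower. The part of probe match in this lean was not tested. Differences taken from 1 array of each cultivar correlated with those from the other arrays at 0.87 and 0.854 across probe sets, which are not independent replicates. Calls were rare among dim probe sets, with 3.99% called in the dimmest of 5 equal groups by mean level and 42.6% in the brightest.

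**Figure D1:**
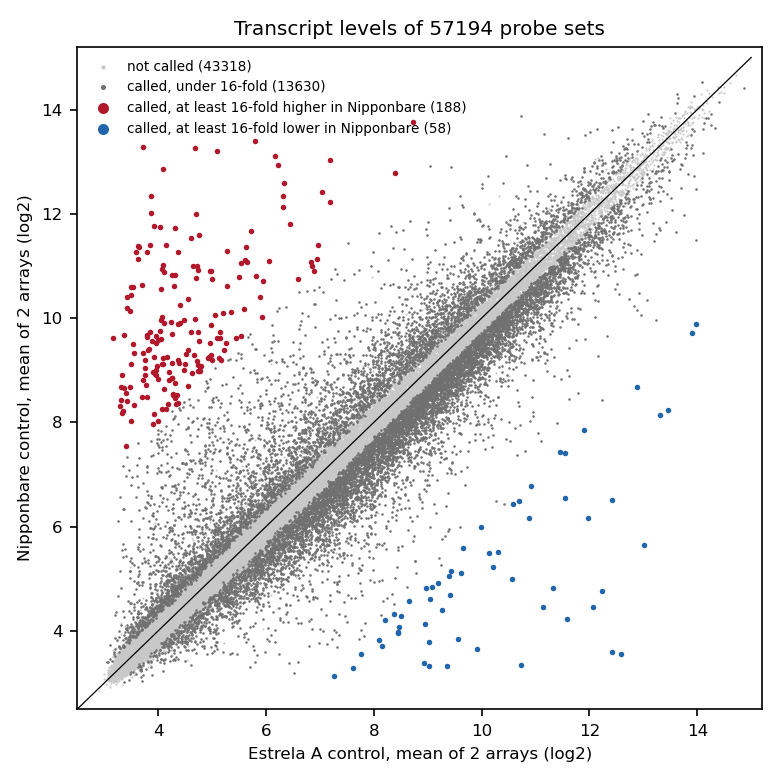
Mean log2 level of each probe set in the Nipponbare control (vertical axis) and the Estrela A control (horizontal axis), 2 arrays each; the line marks equal levels. The 188 red points are called at least 16-fold higher in Nipponbare and the 58 blue points at least 16-fold lower, and they lie far from the dense band around the line.

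The most extreme probe sets read at the top of the scale in 1 cultivar and near its lowest values in the other; signal over background was not tested. The largest positive difference, at a probe set without a gene name, had 13.26 and 13.32 in Nipponbare, against 3.74 and 3.70 in Estrela A (log2 difference 9.57, SE 0.24, limma adjusted p = 5.85e-11). The largest negative difference, also at a probe set without a gene name, had 3.75 and 3.37 in Nipponbare, against 12.70 and 12.47 in Estrela A (log2 difference -9.03, SE 0.14, adjusted p = 1.58e-12). The groups were far apart at both probe sets.

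Among genes known by an identifier alone, LOC4328727 read 13.35 and 13.16 in Nipponbare, against 4.76 and 4.59 in Estrela A (log2 difference 8.58, SE 0.13, adjusted p = 1.58e-12). All 3 other probe sets of this gene were called in the same direction. LOC4329983 (12.57 and 12.10 in Nipponbare, against 3.99 and 3.74 in Estrela A) and LOC4346790 (12.16 and 11.89, against 3.85 and 3.88) followed with log2 differences of 8.47 and 8.16. LOC4342250 read 4.73 and 4.80 in Nipponbare, against 12.31 and 12.16 in Estrela A (log2 difference -7.47, SE 0.09, adjusted p = 1.24e-12). LOC4340994 read 4.86 and 4.77 in Nipponbare, against 11.32 and 11.31 in Estrela A. LOC4334012 read 6.28 and 6.05 in Nipponbare, against 11.69 and 12.25 in Estrela A (log2 difference -5.80, SE 0.53, adjusted p = 1.04e-05). The first 5 of these genes held the level of their own cultivar in every derived line. LOC4342250, for instance, averaged 4.50 in the unstable transgenic line, 4.46 in the unstable mutant and 12.31 in the stable mutant. LOC4334012 did not, at 8.21 in the unstable transgenic line, 11.52 in the unstable mutant and 11.65 in the stable mutant.

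Several genes of iron uptake were among the most different named genes and were higher in Nipponbare. Grasses such as rice take up iron by secreting chelators of the mugineic acid family, made from nicotianamine, and rice also takes up ferrous iron directly. NAS1, a nicotianamine synthase, read 11.62 and 11.89 in Nipponbare, against 4.03 and 4.05 in Estrela A. This is a 210-fold difference (log2 7.71, SE 1.59, adjusted p = 0.00379). Arrays that do not overlap were a condition for naming the genes of largest difference, here and below. Its neighbour NAS2 read 12.52 and 12.67 in Nipponbare, against 6.36 and 6.31 in Estrela A (76.6-fold, SE 1.35 log2, adjusted p = 0.00508). With the 4 arrays alone both genes had an adjusted p of 2.43e-05. NAS3, another member of the family, had a log2 difference of -0.84 (adjusted p = 0.0256), a call lost without Nipponbare replicate 1, without Estrela A replicate 2 (adjusted p = 0.167) and after cyclic loess. NAS1 and NAS2 are near-identical copies next to each other, so a share of each signal may come from the other gene.

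IRT1, the root transporter of ferrous iron, read 10.88 and 11.25 in Nipponbare, against 5.58 and 5.48 in Estrela A (46.4-fold higher, SE 0.21 log2, adjusted p = 3.02e-09). YSL15, which imports iron bound to deoxymugineic acid, read 9.56 and 10.19 in Nipponbare, against 6.58 and 6.70 in Estrela A (log2 difference 3.23, adjusted p = 0.000731). NRAMP5, the main manganese and cadmium importer of rice roots, read 10.59 and 10.60 in Nipponbare, against 8.66 and 8.67 in Estrela A (log2 difference 1.93, adjusted p = 1.37e-06). At each of these 3 genes the lower Nipponbare array stood above the higher Estrela A array, which the naming rule required of IRT1.

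Other metal genes were lower in Nipponbare. VIT1.2, a vacuolar iron transporter, read 10.67 and 10.28 in Nipponbare, against 12.91 and 12.93 in Estrela A (log2 difference -2.44, adjusted p = 5.5e-08). The copper transporter COPT2 read 5.94 and 6.92 in Nipponbare, against 9.52 and 8.72 in Estrela A (6.45-fold lower, SE 0.32 log2, adjusted p = 8.94e-05). The zinc transporters ZIP7 and ZIP4 had log2 differences of -1.82 and -1.45, and IDEF1, a regulator of the iron deficiency response, of -0.98. Over the metal list 15 of 53 measured genes were higher and 14 lower in Nipponbare, against 14.8% higher and 22.5% lower over all genes, and the median difference was near 0. The list as a whole was centred on no difference.

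Among nitrate, ammonium and phosphate genes, 14 of 36 were higher and 5 lower in Nipponbare (38.9% and 13.9%, against 14.8% and 22.5% over all genes). The median difference was 0.22. NRT2.2, a high-affinity nitrate transporter, read 9.25 and 9.97 in Nipponbare, against 5.22 and 4.95 in Estrela A (23.0-fold, SE 0.31 log2, adjusted p = 8e-07). NRT2.3 read 9.16 and 9.32 in Nipponbare, against 5.16 and 5.09 in Estrela A (17.3-fold, SE 0.11 log2, adjusted p = 1.4e-10). NAR2.2, named after the partner protein that such transporters need, had a log2 difference of 2.1 (7.60 and 8.48 in Nipponbare, against 5.95 and 5.92 in Estrela A). No array of one cultivar reached those of the other at these genes, which the naming rule required of NRT2.2 and NRT2.3. NRT2.2 has a near-identical tandem copy that its probes may also read. The ammonium transporters AMT3-3 and AMT1 had log2 differences of 1.94 and 1.5, and GLN1-1, a cytosolic glutamine synthetase, of 1.34. NIA1, a nitrate reductase, went the other way, at 11.28 and 11.57 in Nipponbare and 12.75 and 12.69 in Estrela A (log2 difference -1.29, adjusted p = 0.00013).

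The phosphate transporter Pht1;2 read 9.38 and 9.72 in Nipponbare, against 7.31 and 6.77 in Estrela A (5.7-fold, SE 0.19 log2, adjusted p = 2.31e-06). SPX2 and SPX1, sensors of phosphate status, had log2 differences of 1.58 and 0.69. For the list of nitrate, ammonium and phosphate genes, leaving out 1 of the 4 arrays gave 10 to 13 higher members. The lower members then numbered 2 without Nipponbare replicate 1, 1 without Nipponbare replicate 2, 2 without Estrela A replicate 1 and 3 without Estrela A replicate 2.

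Of the aquaporin and silicon list 10 of 26 genes were higher and 3 lower in Nipponbare (38.5% and 11.5%, against 14.8% and 22.5% over all genes; median 0.17). PIP2-7, a plasma membrane aquaporin, read 12.59 and 12.55 in Nipponbare, against 10.14 and 9.88 in Estrela A (5.9-fold, SE 0.13 log2, adjusted p = 6.55e-08). TIP2, a tonoplast aquaporin, read 13.53 and 13.55 in Nipponbare, against 10.97 and 11.34 in Estrela A (5.22-fold). TIP3 opposed them, at 4.87 and 5.06 in Nipponbare and 7.35 and 7.36 in Estrela A (5.24-fold lower).

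These groups share root genes, so markers of root, shoot and grain were read beside them. Of 11 root markers 6 were higher and 1 lower in Nipponbare (54.5% and 9.09%, against 14.8% and 22.5% over all genes, median difference 0.55). But the higher ones include IRT1, NRT2.2, NRT2.3 and Pht1;2, which are named above. Lsi1, the root silicon channel, read 13.86 and 13.85 in Nipponbare, against 13.40 and 13.25 in Estrela A. Its log2 difference of 0.53 lost its call without any 1 of the 4 arrays. SHR1 and SCR1, which pattern the root, had log2 differences of 0.03 and 0.55 and were not called (adjusted p = 0.946 and 0.0997). The log2 of the summed root marker level was 14.50 and 14.59 in Nipponbare and 13.78 and 13.64 in Estrela A.

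Of 8 shoot markers 2 were higher and 2 lower in Nipponbare, and their summed level was 16.01 and 16 on the log2 scale in Nipponbare and 16.01 and 15.98 in Estrela A. Of 10 markers of remaining grain 2 were higher and 1 lower (20.0% and 10.0%). Their summed level was 11.72 and 11.75 in Nipponbare and 11.66 and 11.68 in Estrela A. The dimmest markers were RBCS1, a Rubisco small subunit gene, at 3.43 and 3.51 in Nipponbare and 3.62 and 3.73 in Estrela A, and the storage protein gene GLUA-1, at 3.45 and 3.69 in Nipponbare and 3.64 and 3.78 in Estrela A. The part of a different share of root tissue in the nutrient genes was not tested.

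**Figure D2:**
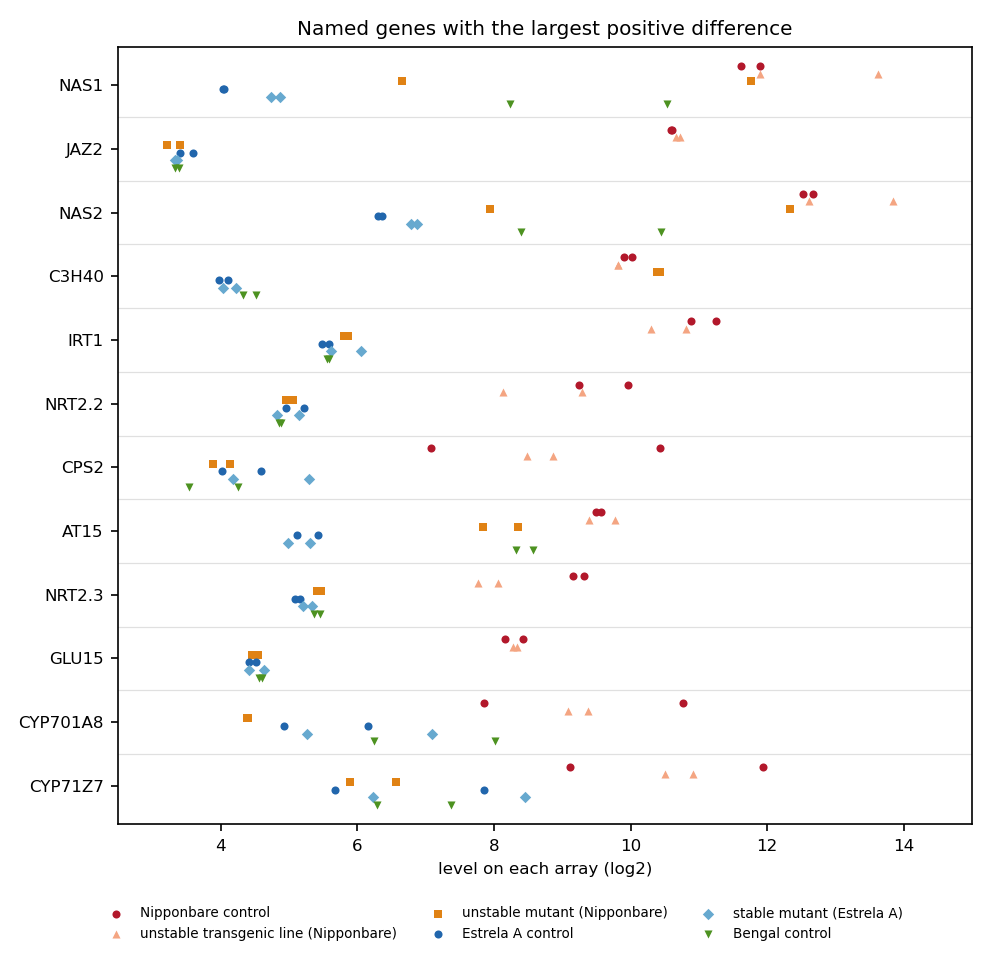
Log2 level on each array of the 12 named genes with the largest positive difference, 2 arrays per group; Nipponbare control and its derived lines stand above Estrela A control, its derived line and the Bengal control within each gene. In JAZ2, IRT1, NRT2.2, CPS2, NRT2.3, GLU15, CYP701A8 and CYP71Z7 the unstable mutant lies with Estrela A although it is a Nipponbare line, and in C3H40 with Nipponbare.

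Over the jasmonate list 14 of 41 genes were higher and 4 lower in Nipponbare (34.1% and 9.76%, against 14.8% and 22.5% over all genes). The median difference was 0.32, and JAZ2 differed most. Jasmonate is a hormone of wounding and defence, and JAZ proteins repress its target genes until the hormone triggers their breakdown. JAZ2 read 10.61 and 10.60 in Nipponbare, against 3.60 and 3.40 in Estrela A (138-fold, SE 0.10 log2, adjusted p = 1.24e-12). The Nipponbare arrays were nearly equal and far above both Estrela A arrays. The Estrela A values of JAZ2 and NAS1 lie within the range of the reporter probe sets (2.9 to 7.34), so the size of these folds was not measured above background. The same limit holds for many other folds given here, where the mean of the lower cultivar lies in this range. Among them are NAS2, C3H40, IRT1, NRT2.2, NRT2.3, GLU15, CPS2, APG8D, RAB16B, Cht1, SWEET12 and HDAC3. At HDAC3, CCD8A, CAD6, GLU6 and ORC5 the mean of the higher cultivar lay in this range too. There a level above background was not shown in either cultivar. Other JAZ genes differed far less: JAZ6 by 1.08, JAZ7 by 0.73 and JAZ1 by 0.51 on the log2 scale, all higher in Nipponbare.

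Genes of jasmonate synthesis were divided. AOS4, listed as an allene oxide synthase, read 10.47 and 10.83 in Nipponbare, against 8.36 and 8.02 in Estrela A (5.5-fold, SE 0.19 log2, adjusted p = 2e-06). AOS2 and the lipoxygenase gene LOX5 had log2 differences of 1.39 and 1.33, and AOS3 of -1.13. The higher count of the jasmonate list was 9 without Estrela A replicate 1 and 9 without Estrela A replicate 2. COI1A, the hormone's receptor, was among the lower ones, with a log2 difference of -0.46.

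Genes of diterpenoid phytoalexin synthesis, which make antimicrobial compounds in attacked rice leaves, were higher in Nipponbare in 12 of 20 cases and lower in 1 (median difference 1.32). These shares were 60.0% and 5.0%, against 14.8% and 22.5% over all genes. The 2 Nipponbare pools disagreed here. CPS2, the cyclase that starts the phytocassane branch, read 10.43 and 7.08 in Nipponbare, against 4.59 and 4.02 in Estrela A (21.9-fold, SE 0.83 log2, adjusted p = 0.00207). Without Nipponbare replicate 1 its fold was 6.84, and without Nipponbare replicate 2 it was 69.8.

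CYP71Z7, a P450 of the same branch, read 11.94 and 9.11 in Nipponbare, against 7.86 and 5.67 in Estrela A (13.5-fold, adjusted p = 0.0129). CYP701A8 read 10.77 and 7.85 in Nipponbare, against 6.16 and 4.92 in Estrela A (13.6-fold, adjusted p = 0.00681). Both genes separate the cultivars, as the naming rule required. With the 4 control arrays alone neither was called (limma adjusted p = 0.08 for CYP71Z7 and 0.0582 for CYP701A8). Each also lost its call in 2 of the 4 fits that left out 1 array, without Nipponbare replicate 1 and without Estrela A replicate 2. Their folds spanned 5.08 to 36.1 and 4.96 to 37.5 over those fits, lowest without Nipponbare replicate 1 and highest without Nipponbare replicate 2, and also moved by over 1.5 times without either Estrela A array. The count of higher members fell to 4 without Nipponbare replicate 1, 6 without Estrela A replicate 1 and 5 without Estrela A replicate 2, and was 14 without Nipponbare replicate 2. With the 4 control arrays alone 3 members were called higher.

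KS10, CPS1, which acts in gibberellin synthesis, and CYP76M7 were called whichever 1 array was left out, at log2 differences of 2.93, 1.54 and 1.52. The KS10 fold of 7.65 became 3.04 without Nipponbare replicate 1 and 19.2 without Nipponbare replicate 2. That of CPS1, 2.92, became 1.92 without Estrela A replicate 1 and 4.44 without Estrela A replicate 2. The lower member, CYP701A6, is a kaurene oxidase of gibberellin synthesis and read 7.87 and 7.90 in Nipponbare, against 9.23 and 9.28 in Estrela A (2.58-fold, SE 0.17 log2, adjusted p = 0.000138).

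Phenylpropanoid genes, which lead to lignin and flavonoids, were higher in Nipponbare in 9 of 16 cases and lower in 2 (median difference 0.68). These shares were 56.2% and 12.5%, against 14.8% and 22.5% over all genes. CAD8A, a cinnamyl alcohol dehydrogenase named for the last step to lignin monomers, read 11.15 and 11.16 in Nipponbare, against 9.84 and 9.76 in Estrela A (2.56-fold, SE 0.20 log2, adjusted p = 0.0004). CAD6 and CAD3 were 2.5-fold and 2.3-fold higher, and 4CL1, a coumarate CoA ligase, had a log2 difference of 1.18. The 2 lower genes were PAL and CAD8C, at -0.38 and -0.36 on the log2 scale. Both lost their calls without Nipponbare replicate 1 (adjusted p = 0.0748 for PAL and 0.155 for CAD8C), without Estrela A replicate 1 and without Estrela A replicate 2.

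Cell wall genes were higher in 23 of 81 cases and lower in 9 (28.4% and 11.1%, against 14.8% and 22.5% over all genes, median difference 0.13). GLU15, of the endoglucanase family, read 8.43 and 8.16 in Nipponbare, against 4.51 and 4.42 in Estrela A (14.2-fold, SE 0.12 log2, adjusted p = 6.92e-10). XRT5 read 12.13 and 12.15 in Nipponbare, against 9.76 and 9.53 in Estrela A (5.64-fold), and GLU6 was 5.31-fold higher in Nipponbare. BC1, a COBRA-like protein of secondary walls, and the cellulose synthases CESA6 and CESA1 had log2 differences of 1.52, 1.57 and 1.10. The expansin genes, whose products loosen walls, split: EXPB2, EXP3 and EXP1 were higher in Nipponbare, by 1.97, 1.71 and 1.65, while EXP2 and EXLA2 had differences of -1.68 and -1.38.

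Genes that were lower in Nipponbare were led by BURP16, a member of the BURP domain family. It read 7.85 and 8.44 in Nipponbare, against 13.07 and 13.53 in Estrela A (35.6-fold, SE 0.37 log2, adjusted p = 1.06e-06). APG8D, of the ATG8 family of autophagy proteins, read 4.61 and 5.22 in Nipponbare, against 9.32 and 9.07 in Estrela A (19.4-fold, SE 0.29 log2, adjusted p = 7.75e-07). SAT1 read 8.65 and 9.02 in Nipponbare, against 11.51 and 11.43 in Estrela A (6.21-fold). ELA3 read 5.10 and 6.80 in Nipponbare, against 9.70 and 9.08 in Estrela A (10.9-fold, adjusted p = 0.000139), with folds of 6.02 without Nipponbare replicate 1 and 19.6 without Nipponbare replicate 2. At each of these 4 genes both Nipponbare arrays stood below both Estrela A arrays, which the rule for naming them required.

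Dehydrins and late embryogenesis proteins accumulate in drying tissue under abscisic acid and protect cells from water loss. RAB21, a dehydrin, read 7.96 and 9.40 in Nipponbare, against 12.93 and 12.85 in Estrela A (18.5-fold lower, SE 0.43 log2, adjusted p = 2.29e-05). Its tandem neighbour RAB16B read 4.83 and 5.97 in Nipponbare, against 9.18 and 9.23 in Estrela A (14-fold lower, SE 0.48 log2, adjusted p = 0.000129). LEA19 read 6.95 and 8.77 in Nipponbare, against 12.08 and 11.73 in Estrela A (16.5-fold lower, SE 0.45 log2, adjusted p = 4.74e-05).

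The cultivars did not overlap at these 3 genes, as the naming rule required, but Nipponbare replicate 1 was the lower pool at each. Without that array the RAB21 fold was 11.2 and that of LEA19 8.78, and without Nipponbare replicate 2 they were 30.5 and 31.0. RAB21 and RAB16B are close copies, so their signals cannot be fully told apart. The stress list as a whole, these 3 genes included, did not share the direction. In it 5 of 28 genes were higher in Nipponbare and 6 lower (17.9% and 21.4%, against 14.8% and 22.5% over all genes). Its median was -0.04 as deposited and 0.05 after cyclic loess. The higher count was 2 without Nipponbare replicate 1 and 2 without Estrela A replicate 1. CBF3, a cold regulator, read 8.15 and 8.51 in Nipponbare, against 5.92 and 5.93 in Estrela A (log2 difference 2.40, adjusted p = 0.00119). ABA8OX1, which inactivates abscisic acid, read 9.20 and 9.60 in Nipponbare, against 6.47 and 6.77 in Estrela A (6.87-fold higher, SE 0.27 log2, adjusted p = 1.56e-05).

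Chitinases, which attack fungal walls, were partly lower in Nipponbare. Cht1 read 4.38 and 4.76 in Nipponbare, against 7.75 and 8.59 in Estrela A (12.1-fold lower, SE 0.32 log2, adjusted p = 7.21e-06). The neighbours chia4a and Cht4 were 5.19-fold and 4.5-fold lower, with no overlap of arrays, and may share probes' targets as close copies. Over the chitinase and defence list 2 of 18 genes were higher and 6 lower (11.1% and 33.3%, against 14.8% and 22.5% over all genes). The median was 0.08, opposite in sign to the larger count. The non-symbiotic haemoglobin genes NSHB2 and NSHB1, whose products scavenge nitric oxide, were lower. NSHB2 read 8.15 and 8.76 in Nipponbare, against 11.68 and 11.56 in Estrela A (8.97-fold lower, SE 0.58 log2, adjusted p = 0.00175), and NSHB1 was 7.16-fold lower. The 2 other probe sets of NSHB1 were not called. The low oxygen list of 6 genes also held 2 higher ones, PDC2 and Adh2, of alcoholic fermentation. Its shares were 33.3% each way, against 14.8% and 22.5% over all genes. The 1 other probe set of PDC2 was not called. PDC2 lost its call without Estrela A replicate 1 (adjusted p = 0.0612), and Adh2 without each of the 4 arrays (at most 0.162, without Estrela A replicate 2).

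Part of the SWEET family of sugar transporters was lower in Nipponbare. SWEET11 read 7.68 and 7.85 in Nipponbare, against 10.00 and 10.41 in Estrela A (5.43-fold lower, SE 0.17 log2, adjusted p = 7.75e-07), and SWEET14 was 3.52-fold lower. SWEET12 read 4.49 and 4.99 in Nipponbare, against 6.75 and 7.96 in Estrela A (6.13-fold lower); its fold was 9.32 without Estrela A replicate 1 and 4.03 without Estrela A replicate 2. SWEET4 and SWEET16 were lower too, by -0.69 and -0.75 on the log2 scale, and the other SWEET genes measured were not called. Over the starch, sugar and amylase list 4 of 54 genes were higher and 14 lower (7.41% and 25.9%, against 14.8% and 22.5% over all genes, median -0.14).

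**Figure D3:**
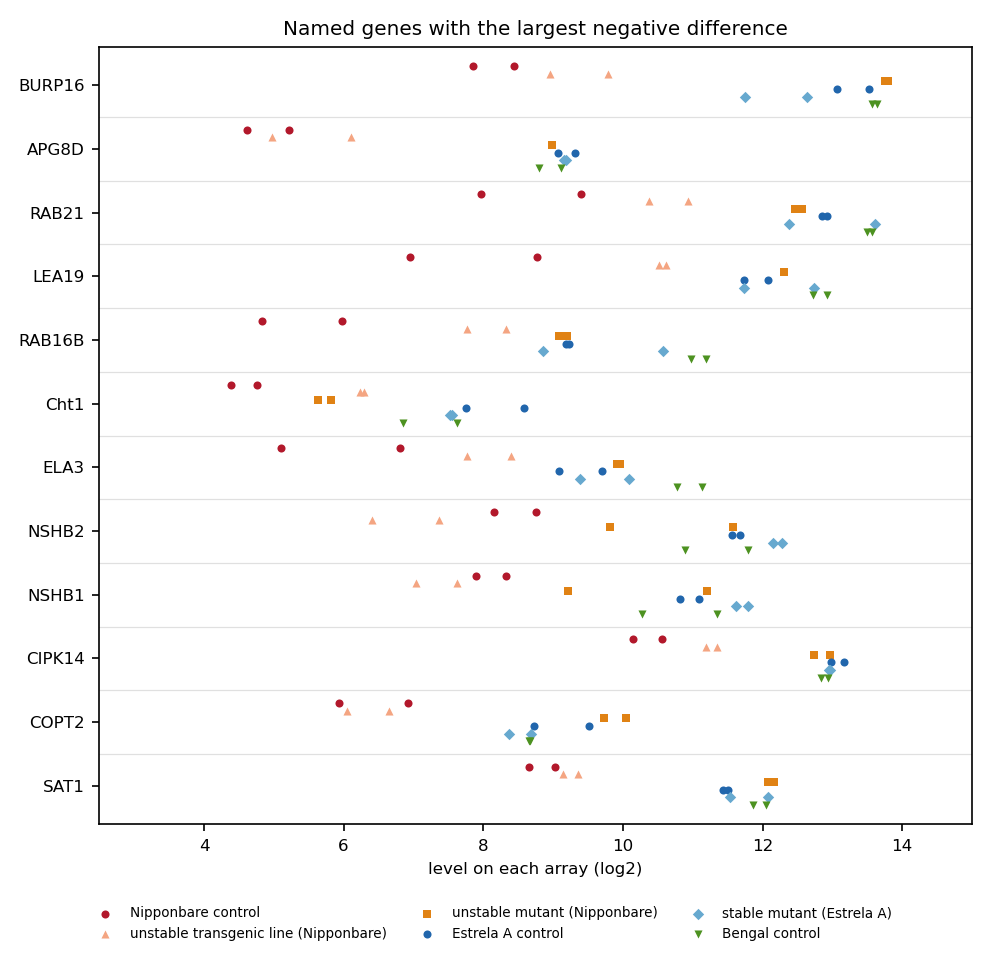
Log2 level on each array of the 12 named genes with the largest negative difference, 2 arrays per group, drawn as for the genes with a positive difference. Both Nipponbare control arrays lie left of both Estrela A control arrays in every gene, as the selection required. The unstable mutant lies with Estrela A in every gene but Cht1, NSHB2 and NSHB1.

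MADS50 and MADS56, of the flowering list, differed in opposite directions. MADS50, a promoter of flowering, read 8.40 and 8.26 in Nipponbare, against 7.16 and 7.08 in Estrela A (2.31-fold higher, SE 0.10 log2, adjusted p = 3.48e-06). MADS56, a repressor of flowering under long days, read 8.94 and 8.67 in Nipponbare, against 10.73 and 10.39 in Estrela A (3.38-fold lower, SE 0.17 log2, adjusted p = 1.93e-05). The clock genes CCA1 and PRR95 were 2.29-fold and 1.81-fold lower in Nipponbare. The 1 other probe set of CCA1 was not called. Of 7 clock genes 2 were lower (28.6%) and 0 higher by limma, and the same counts were reached at an unadjusted p under 0.05. Of 13 flowering genes 1 was higher and 4 lower (7.69% and 30.8%, against 14.8% and 22.5% over all genes). Of 5 photoreceptor and light signalling genes 2 were lower (40.0%) and 0 higher (at an unadjusted p under 0.05, 3 lower and 0 higher).

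Among hormone genes, the cytokinin response regulator RR9 differed most in its list. RR9 read 8.87 and 8.95 in Nipponbare, against 6.75 and 6.69 in Estrela A (4.56-fold, SE 0.18 log2, adjusted p = 3.99e-06), and RR1 was 3.43-fold higher. LOGL9, of the family that activates cytokinins, was 3.25-fold higher. The cytokinin and ethylene list had 11 of 42 genes higher and 8 lower (26.2% and 19.0%, against 14.8% and 22.5% over all genes). Its higher count fell without Nipponbare replicate 2 and without Estrela A replicate 1. Of 57 auxin genes 9 were higher and 17 lower (15.8% and 29.8%, against 14.8% and 22.5% over all genes; median -0.16). There were 5 higher and 14 lower without Nipponbare replicate 1, and 4 higher and 12 lower without Estrela A replicate 1. PIN3A, an auxin carrier, was 2.96-fold lower and the repressor gene IAA18 2.56-fold lower. In the gibberellin, brassinosteroid and strigolactone list 4 of 25 genes were higher and 8 lower. CCD8A, of the strigolactone synthesis enzymes, was 4.26-fold higher (6.06 and 6.62 in Nipponbare, against 4.20 and 4.30 in Estrela A).

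Regulators and silencing genes gave single large differences. PP2C12, a protein phosphatase, read 11.20 and 11.32 in Nipponbare, against 8.19 and 7.78 in Estrela A (9.68-fold, SE 0.15 log2, adjusted p = 2.06e-08). CIPK14 was 6.59-fold lower and C3H40, a CCCH zinc finger gene, 60.3-fold higher (9.90 and 10.02 in Nipponbare, against 3.98 and 4.11 in Estrela A). The phosphatase and kinase list as a whole had 17 of 125 genes higher and 23 lower (13.6% and 18.4%, against 14.8% and 22.5% over all genes). Its higher count fell without Nipponbare replicate 1 and without Estrela A replicate 1. HDAC3, a histone deacetylase, read 3.74 and 3.86 in Nipponbare, against 6.14 and 5.98 in Estrela A (4.79-fold lower), while DCL2A, which cuts double-stranded RNA, was 3.19-fold higher. In the list of DNA methylation and chromatin 3 of 27 genes were higher and 8 lower (11.1% and 29.6%, median -0.26). The lower count was 5 without Nipponbare replicate 1, 4 without Nipponbare replicate 2, 5 without Estrela A replicate 1 and 3 without Estrela A replicate 2. In the MADS and homeobox list 5 of 77 were higher and 21 lower (6.49% and 27.3%, median -0.14). The lower count of that list fell without Nipponbare replicate 1 and without Estrela A replicate 2.

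The remaining lists ranged widely in their share of called genes, beside 14.8% higher and 22.5% lower over all genes. No ribosomal protein gene of 25 was called by limma, with 3 higher and 3 lower at an unadjusted p under 0.05. None of 6 WRKY genes was called, with 1 in each direction at an unadjusted p under 0.05; WRKY24 (log2 difference 1.01, adjusted p = 0.103) came to 0.0458 without Nipponbare replicate 2. Of 51 cell cycle genes 11 were lower and 0 higher by limma (16 and 1 at an unadjusted p under 0.05), led by ORC5 at 2.64-fold. The lower share, 21.6%, was near that over all genes, and the lower count fell without Estrela A replicate 1. Photosynthesis genes were split, 5 of 17 higher and 5 lower (29.4% each way), with GLK1, a regulator of chloroplast genes, 1.97-fold lower. Both counts fell whichever 1 of the 4 arrays was left out. Of the remaining lists, 10 of 52 heat shock genes were higher and 8 lower (19.2% and 15.4%). The antioxidant list had 11 of 48 genes higher and 8 lower (22.9% and 16.7%), and 11 of 29 P450 genes were higher and 4 lower (37.9% and 13.8%). Without Estrela A replicate 1 the heat shock counts were 6 and 4, and 5 heat shock genes were lower without Nipponbare replicate 2. The antioxidant list had 5 lower without Estrela A replicate 1 and 7 higher without Estrela A replicate 2, and the P450 list 7 higher without Nipponbare replicate 1. Of 16 seed storage genes 2 were higher and 3 lower (12.5% and 18.8%), and of 12 disease resistance genes 1 was higher and 2 lower (8.33% and 16.7%). Several small counts changed when 1 array was left out. The seed storage list had 0 higher and 0 lower without Nipponbare replicate 1, and 1 higher and 0 lower without Estrela A replicate 1. Without Estrela A replicate 2 it had 1 higher and 1 lower. The disease resistance list had 0 higher and 1 lower without Estrela A replicate 1, and the photoreceptor list kept 2 lower only without Nipponbare replicate 1, with 1 otherwise. The aquaporin list had 1 or 2 lower, the shoot markers 1 higher and the root markers 0 lower whichever of the 4 arrays was left out. The chitinase list had 1 higher without Nipponbare replicate 1 or Estrela A replicate 2, and the grain markers 1 higher and 0 lower without Nipponbare replicate 1 or Estrela A replicate 1. Over all 978 listed genes 188 were higher and 191 lower, 38.8% in all, which is near the share over all genes.

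**Figure D4:**
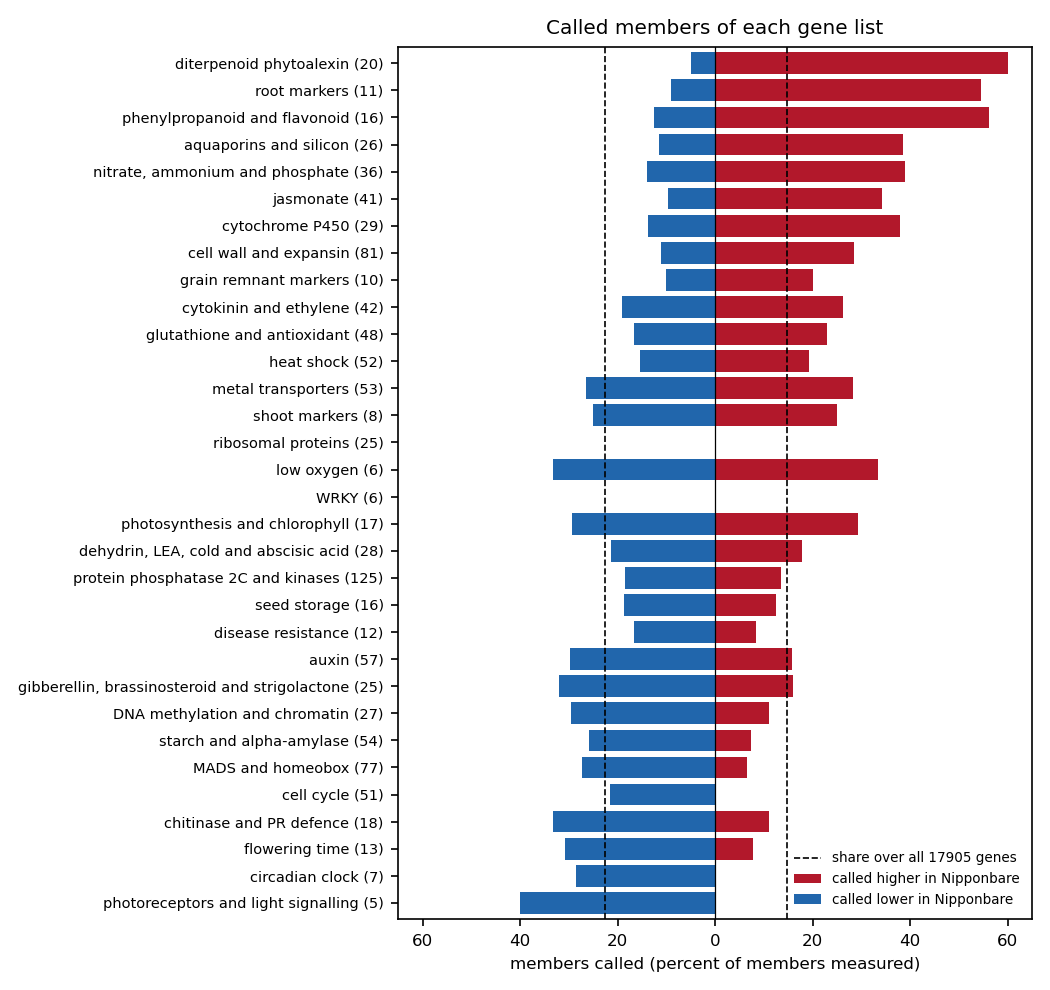
Share of measured members of each gene list called higher (red, right) or lower (blue, left) in Nipponbare, in percent, with the number measured in brackets; dashed lines mark the share over all 17905 genes (14.8% higher, 22.5% lower). Phytoalexin, root marker and phenylpropanoid genes have the largest shares of higher members, and the ribosomal and WRKY lists have none called.

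The arrays of the derived lines showed how many differences recurred in other plants of the same cultivars. Their levels did not enter the control differences, but their spread did enter the calls. Cultivar and modification are mixed there. The unstable transgenic line minus the stable mutant had 31.9% of probe sets called, and the unstable mutant minus the stable mutant 8.13%. Both comparisons use the same stable mutant arrays. Of the 13876 calls, 91.4% had the same sign and 70.5% were called in the same direction in the unstable transgenic line minus the stable mutant. In the unstable mutant minus the stable mutant 68.6% had the same sign and 19.2% were called. Calls in the opposite direction numbered 167 with the unstable transgenic line and 399 with the unstable mutant.

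The largest differences recurred most. All 246 probe sets of at least 16-fold were called in the same direction with the unstable transgenic line, and 205 of 246 with the unstable mutant. On a scale from 0 at the Estrela A control to 1 at the Nipponbare control, the unstable transgenic line stood above 0.75 at 232 of these 246 probe sets and below 0.25 at none. The stable mutant stood below 0.25 at 244. The unstable mutant, a Nipponbare line, stood above 0.75 at 189 and below 0.25 at 42. The Bengal control, a different japonica cultivar, stood near Nipponbare at 109 and near Estrela A at 119.

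**Figure D5:**
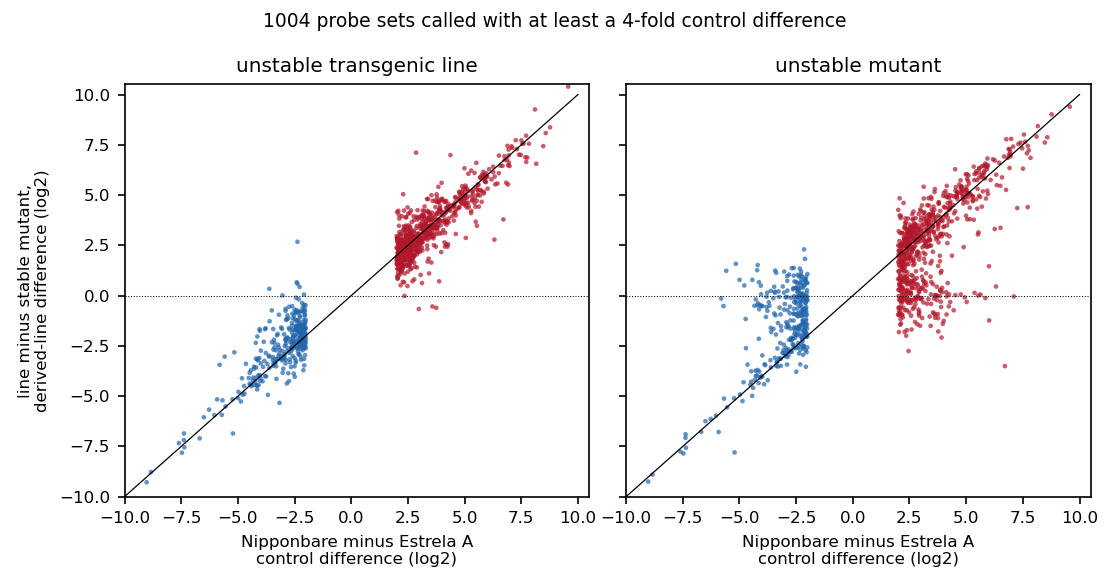
Log2 difference of the unstable transgenic line (left) or the unstable mutant (right) minus the stable mutant, against the Nipponbare minus Estrela A control difference, for the 1004 probe sets called with at least a 4-fold control difference; each point is 1 probe set, red higher and blue lower in Nipponbare, and the solid line marks equal differences. Points follow the line with the unstable transgenic line, while with the unstable mutant a second cloud lies near 0.

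The 42 probe sets near the Estrela A level in the unstable mutant include those of JAZ2, IRT1, NRT2.2, BURP16 and LEA19. The Bengal control also lay on the Estrela A side at these genes, so the likeness was not particular to Estrela A. It averaged 3.36 at JAZ2, 5.57 at IRT1, 4.87 at NRT2.2, 13.6 at BURP16 and 12.8 at LEA19. JAZ2 averaged 10.69 in the unstable transgenic line, 3.31 in the unstable mutant and 3.35 in the stable mutant. IRT1 averaged 10.55, 5.84 and 5.84 in these lines, and NRT2.2 8.71, 5.01 and 4.99. NAS1 was divided within the unstable mutant, at 6.65 and 11.76 in its pools, with 4.87 and 4.74 in the stable mutant pools. BURP16 averaged 9.38 in the unstable transgenic line, 13.78 in the unstable mutant and 12.20 in the stable mutant, and LEA19 10.57, 12.31 and 12.24.

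By list, 16 of the 19 called nitrate, ammonium and phosphate genes were called in the same direction with the unstable transgenic line and 1 of 19 with the unstable mutant. For diterpenoid phytoalexin genes these counts were 12 and 2 of 13, for cell wall genes 28 and 3 of 32, and for dehydrin and stress genes 9 and 0 of 11. Over all 6669 called genes they were 75.1% and 16.6%. Genes that held the Nipponbare level in every Nipponbare group included C3H40 (9.81 in the unstable transgenic line, 10.41 in the unstable mutant and 4.13 in the stable mutant), PP2C12 (10.60, 11.36 and 7.72), MADS50 (8.18, 8.47 and 6.99) and DCL2A (10.88, 10.60 and 9.06). A direct test of the control difference against that of the derived lines, averaging both Nipponbare lines, called 1317 probe sets (2.3%). This average covers lines that disagree at JAZ2, IRT1 and NRT2.2, as their values above show.

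The other cultivar pairs are given beside this one, since they share its arrays. Nipponbare minus Bengal had 13344 calls (5528 higher, 7816 lower) and Estrela A minus Bengal had 5433 (3151 higher, 2282 lower), against 13876 for Nipponbare minus Estrela A. In the Bengal control JAZ2 averaged 3.36, C3H40 4.42 and LOC4328727 12.91. Bengal was thus near Estrela A at JAZ2 and C3H40 and near Nipponbare at LOC4328727. At NAS1 its pools disagreed, at 8.24 and 10.53, and both lay between the other cultivars.

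Genes that differed strongly were in part neighbours. Of 400 genes called at least 4-fold, 77 stood in 36 runs of genes that are next to each other among the genes represented on the array and differ in the same direction. How many such runs a random gene order would give was not estimated. The longest run had 4 genes, LOC4339508, LOC4339507, LOC4339506 and LOC4339505, with log2 differences of 4.77, 5.88, 3.31 and 2.03. LOC4341379, LOC4341380 and LOC4341383 had 5.77, 6.32 and 5.54. Runs also held NAS2 with NAS1, CYP71Z7 with CPS2, RAB16B with RAB21, and Cht4 with chia4a. NAS, RAB16 and chitinase neighbours are close copies that may share signal.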

How the data were processed

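The values are log2 expression deposited by the authors, normalized by RMA (Robust Multichip Average) with Partek software, per the submitters' processing notes. Its version is not given in the sources used. All 14 columns were used as deposited, and replicate 1 is the array with a number in its title. Of 57381 probe sets, 187 control probe sets, 64 of them reporters, were left out. Genes came from the array annotation and a RefSeq gene table: 22436 probe sets matched 1 gene, 95 several and 34663 none. Each of 17905 genes was represented by its brightest probe set over all arrays, and 2458 had an informative name.

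Limma 3.58.1 in R 4.3.3 fitted 7 group means over 14 arrays (7 residual and 4.57 prior degrees of freedom); the 6 arrays of the derived lines were fitted alone. On simulated data with 57194 probe sets and 200 changed, the fit recovered 71% of log2 changes of 1 and 95% of those of 2, with 12 false calls. The simulation shuffled the spreads across probe sets and changed far fewer of them than the 24.3% called in the data. Its rates therefore check the fit and do not give the power of this comparison. The number of arrays limits the precision. Members, gene lists and tests were chosen with earlier results of these data known; the 32 lists are symbol patterns. Named genes were the 12 largest called differences each way among named genes with non-overlapping arrays and a higher group mean of at least 5.86, at most 3 called genes from each list, or its largest difference where it had no call, and 3 each way among genes with an identifier alone and among probe sets without a gene. Genes outside this rule, such as YSL15, NRAMP5, VIT1.2, CBF3 and NAR2.2, were chosen from the lists after their values were seen. The alternatives were other variance moderation, the control arrays alone, filters on dim and on shared probe sets, cyclic loess, median scaling, a fold threshold, a stricter p, a replicate block, and leaving out 1 array at a time, where the lone remaining array is taken to vary as the other groups do. The interaction contrast and the position scale were added after the data were seen.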

Additional observations from a re-analysis of the deposited data

Results flagged for a closer look

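The cultivar difference of 24 named genes differed between the unmodified plants and the average of both Nipponbare lines minus the stable mutant (limma interaction, adjusted p under 0.05). The value is the control difference minus the derived-line difference on the log2 scale, and the genes had been named for large control differences. It was positive for JAZ2 (3.45), IRT1 (3.18), NRT2.3 (2.71), NRT2.2 (2.65), GLU15 (1.95), PIP2-7 (1.92), RR9 (1.66) and PRX74 (1.5), a peroxidase gene. It was negative for BURP16 (-4.54), LOC4334012 (-4.01), LEA19 (-3.24), RAB21 (-2.80), ELA3 (-2.71), APG8D (-2.37), HOX12 (-2.29), COPT2 (-2.28) and Cht1 (-2.06). It was also negative for CIPK14 (-1.82), SAT1 (-1.51), Cht4 (-1.51), CCA1 (-1.12), PIN3A (-1.10), SWEET11 (-1.09) and IAA18 (-0.66). The average hides a disagreement between the lines. In the unstable transgenic line minus the stable mutant, 22 of the 24 genes were called in the direction of the controls and 2 were not called. In the unstable mutant minus the stable mutant, 3 were called in that direction, 5 in the opposite one and 16 not at all. JAZ2, for example, had a log2 difference of 7.34 with the unstable transgenic line and -0.04 with the unstable mutant, against 7.11 between the controls. For GLU15 these were 3.78, -0.02 and 3.83, and for CCA1 -1.14, 1.0 and -1.20. The reporter probe sets were outside the comparison. One of 64 differed, at 3.59 and 3.53 in Nipponbare and 3.9 and 4.05 in Estrela A (log2 difference -0.415, SE 0.10, limma adjusted p = 0.0452 over the reporters), and 6 had an unadjusted p under 0.05.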

How the results depend on the processing

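No called difference of a named gene changed sign under the alternatives run. Summaries did: 39.0% of calls were higher in Nipponbare, but 63.4% at the 2-fold threshold, and the median over genes was -0.065, but 0.012 after cyclic loess. The dehydrin list's median turned from -0.04 to 0.05 after cyclic loess, and that of the chitinase list from 0.08 to -0.01 without Estrela A replicate 1. The 13876 calls became 1235 (783 higher, 452 lower in Nipponbare) when a difference had to exceed 2-fold, 8778 (3280 and 5498) at an adjusted p under 0.01, and 8729 to 14099 when 1 array was left out (3283 to 5980 higher, 5446 to 8119 lower), lowest without Estrela A replicate 1. At the 2-fold threshold 44 of the 379 called list members and 51 of the 96 called named genes passed. The calls recurring in the derived lines numbered 7438 in the test that averages both Nipponbare lines. They numbered 9780 with the unstable transgenic line alone and 2658 with the unstable mutant alone. With the replicate block 13401 probe sets were called. Same-numbered arrays did not deviate together, with correlations of deviations from -0.208 to 0.115 over group pairs and 0.048 for Nipponbare and Estrela A, so the numbers do not pair the samples. The cause of these changes was not tested. Dim probe sets were rarely called.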
